A study of Homo sapiens with 3 samples.

Results

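The transcripts of 10 genes that encode SR splicing factors were examined for RNA sites recovered with MATR3, a nuclear RNA-binding protein. The genes were SRSF1, SRSF2, SRSF3, SRSF4, SRSF5, SRSF6, SRSF7, SRSF9, SRSF10 and SRSF11. Their clusters were found by gene name, as those that the deposited tables assign to one of these genes from the HAVANA or ENSEMBL annotation. SRSF8 and SRSF12 are not among the 10 and are described with the related genes. A cluster is a stretch of overlapping sequence reads with T-to-C changes that was called as a site. The SR genes held 59 of the 115227 clusters in all. They made up 45 of 87230 clusters in wild-type (WT) replicate 1, called WT1, 13 of 27155 in WT replicate 2, called WT2, and 1 of 842 in the MATR3 knockout (KO).

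All 3 libraries came from HAP1, a near-haploid human cell line derived from the chronic myeloid leukaemia line KBM-7, with no further treatment named. PAR-CLIP was used: RNA is crosslinked to protein by UV light after uptake of a photoreactive uridine, and crosslinked uridines are read as C. Limits come from the labels: complexes were recovered on anti-FLAG beads although no tag on MATR3 is recorded, and the control is 1 library of 1 commercial MATR3 KO line. The MATR3 gene itself had 53 clusters in WT1, 26 in WT2 and 0 in KO; clusters on RNA do not measure the protein. The clusters held 2668797 reads in WT1, 1558995 in WT2 and 224142 in KO, and the depth of the libraries beyond these clusters is not known from the tables.

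SR proteins carry RNA recognition motifs and a tail rich in arginine and serine. They bind mainly exonic RNA, help to define splice sites, and several of them also act in mRNA export. Many SR genes regulate their own mRNA through an alternative exon or a retained intron that leads to decay of the transcript, so it matters in which part of these transcripts a site lies. MATR3 binds pyrimidine-rich RNA, often in introns, and has been linked to the repression of exons.

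The sequences below show the SR gene sites found in both WT libraries and the 1 site found in KO. Each is the part that the overlapping clusters share, limited to 30 nt where it was longer, read on the transcript strand from 5′ to 3′, in build hg38. Capitals mark 3 pyrimidine words: ATCTT, then the word TTCTT, and lastly the word TTTCT.

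SRSF2, chr17:76734580-76734609, minus strand, 3′ UTR, both WT libraries: atcaaacacaattctaatctcttctcttat

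SRSF3, chr6:36599233-36599262, plus strand, intron, both WT libraries: cATCTTtccaaATCTTcccttatacttcag

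SRSF11, chr1:70216982-70217011, plus strand, intron, both WT libraries: tatttcctctgtctggaatactcttcctcc

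SRSF4, chr1:29168782-29168804, minus strand, intron, WT1 and KO: ccaatattcattcacatccacca

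The SRSF3 site held the word ATCTT at 2 places, and the other printed stretches held none of the 3 words in full. The site on SRSF2 was the only shared site in a 3′ UTR.

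Of the SR genes, SRSF2 had the most reads in clusters per kb of gene, all from this site. It had 439 reads of 41 distinct sequences in WT1, at positions 76734579 to 76734613, and 351 reads of 13 distinct sequences in WT2, at 76734579 to 76734612. These clusters ranked 111 of 87230 and 119 of 27155 by reads in their libraries. They were the sole SRSF2 clusters in either library, and KO had none. Both clusters reached position 76734579, which is the 3′ end on this strand, and both sequences ended in G there. Their 5′ ends differed, at 76734613 in WT1 and 76734612 in WT2. T-to-C changes were less frequent in WT2, where 37.04% of the reads carried one, than in WT1, where 70.1% did. Converted positions numbered 2 and 11.

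SRSF3, the smallest SR protein and one that also acts in mRNA export and 3′ end formation, had the cluster with the most reads of any SR gene in WT1. That cluster was 107 nt long, lay in an intron at positions 36599189 to 36599295, and held 753 reads of 76 distinct sequences with 17 converted positions. It ranked 38 of 87230 in its library. In WT2 the single SRSF3 cluster, at 36599233 to 36599262, lay wholly inside it and held 149 reads of 10 distinct sequences. Clusters of any library at most 500 nt apart were taken as 1 stretch, a distance set after the values were seen. The stretch from 36599158 to 36599334 held 3 clusters of WT1, which together carried 840 of the 938 SRSF3 reads of that library, or 89.6%. The other SRSF3 clusters of WT1 had 9 to 43 reads, and 1 of them lay in the 3′ UTR.

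SRSF11, an SR-like protein that associates with spliceosome components, had the most clusters of the family and only intronic ones. There were 12 clusters with 551 reads in WT1 and 7 with 294 reads in WT2. The cluster with the most reads was the shared one in both libraries, with 183 reads at 70216981 to 70217023 and 119 reads at 70216981 to 70217013. Around it, a stretch of 714 nt held 4 clusters of WT1 and 2 of WT2, with 48.1% and 54.1% of the gene's reads. A further 2 stretches of SRSF11 had 1 cluster from each WT library without overlap, at distances of 199 and 162 nt.

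SRSF4, an SR protein with a long arginine-serine tail, had 9 clusters with 526 reads in WT1 and 3 clusters with 190 reads in WT2, all intronic. No SRSF4 cluster was shared by the WT libraries. The clusters with the most reads were 184 reads at 29156781 to 29156814 in WT1 and 93 reads at 29155436 to 29155469 in WT2, which lay 1312 nt apart. A stretch of 1106 nt, from 29168117 to 29169222, held 6 of the 9 clusters of WT1, 1 of WT2 and the KO cluster.

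That KO cluster was the only one in an SR gene. It had 15 reads of 1 distinct sequence, and its neighbour in WT1, at 29168775 to 29168804, had 12 reads of 3 distinct sequences. Both ended at the same base, 29168804, which is the 5′ end on this strand. WT2 had no cluster at this position; its nearest lay 72 nt away. By reads the KO cluster ranked 798 of 842 in its library. Of the 45 SR clusters of WT1, 1 overlapped a KO cluster, against 0.0504% over all clusters of that library. By gene, 1 of 10 SR genes had a KO cluster, against 5.88% of the 9706 genes with a WT cluster. Single clusters give no ground to set these shares apart.

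SRSF10, which can act as a splicing repressor, had 7 clusters with 223 reads in WT1, of which 5 were intronic and 2 lay in the 3′ UTR. In WT2 it had 1 intronic cluster of 5 reads, 91 nt from the cluster with the most reads of WT1, which held 74. The remaining 5 SR genes, SRSF1, SRSF5, SRSF6, SRSF7 and SRSF9, had clusters in WT1 alone. SRSF6 had 2 clusters, both in the 3′ UTR, with 16 and 19 reads. SRSF7, which acts in mRNA export as well, had 3 clusters of 5, 7 and 20 reads, each of 1 distinct sequence. SRSF5 had 1 intronic cluster of 6 reads and SRSF9 had 1 of 5 reads, the lowest number of reads in any cluster of the tables.

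For SRSF4, SRSF10, SRSF6 and SRSF9, the cluster with the most reads in WT1 is shown to give examples of base make-up, with the same capitals as above and a window of at most 30 nt around the cluster's mode position. These 4 genes were picked after the sequences were seen, and other unshared clusters had more reads than some of them.

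SRSF4, chr1:29156782-29156811, minus strand, intron, WT1, 184 reads: tcttaacctctctcttctcattccttcgtc

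SRSF10, chr1:23976571-23976600, minus strand, intron, WT1, 74 reads: ataaatcctttttatacttattatattctg

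SRSF6, chr20:43463423-43463452, plus strand, 3′ UTR, WT1, 19 reads: gaacATCTTgattccccTTTCTTttacttg

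SRSF9, chr12:120468274-120468302, minus strand, intron, WT1, 5 reads: cttttTTTCTTtccTTCTTatttttttag

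The SRSF9 cluster was the most pyrimidine-rich of the family, at 89.7% T and C over the whole cluster, and the SRSF4 cluster had 82.4%.

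SRSF1, the founding SR protein, had 1 cluster under its own name, of 22 reads, at 58005244 to 58005278 on the minus strand of chromosome 17 in WT1. This count depends on the annotation. Inside the RefSeq interval of SRSF1 and on its strand, WT1 had 13 further clusters with 257 reads and WT2 had 2 with 207 reads, all assigned to introns of an overlapping transcript named RP11-159D12.5. No KO cluster lay there. At 58004394 to 58004428 both WT libraries had a cluster with the same start and end, with 92 reads in WT1 and 84 in WT2; a window of 30 nt in it, at chr17:58004396-58004425, read caccttcccctttaaactaatattcataat. The tables give each cluster to 1 gene, so reads of SRSF1 and of this transcript cannot be told apart. This site was chosen for description after its values were seen. No other SR gene had a cluster of another name on its strand.

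**Figure D1:**
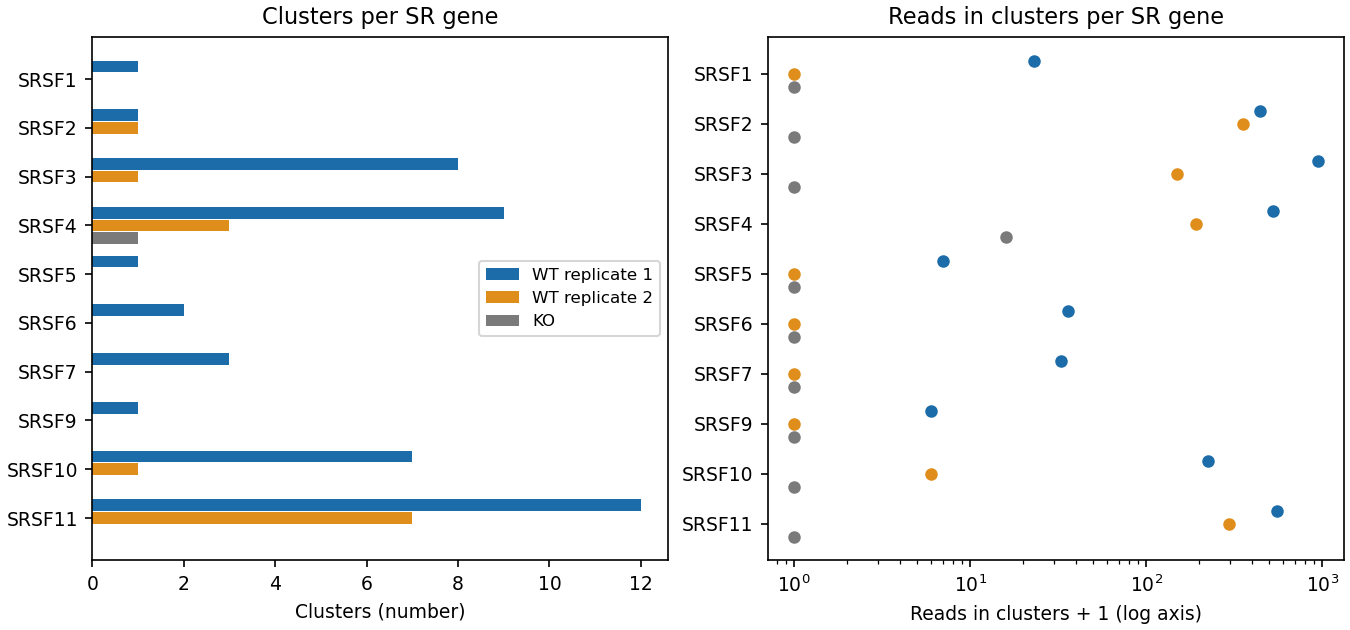
Clusters (left, number, axis from 0) and reads in clusters plus 1 (right, log axis) of the 10 SR genes, with WT1 in blue, WT2 in orange and KO in grey; a point at 1 stands for no cluster. All 10 genes have clusters in WT1, 5 have them in WT2, and SRSF4 alone has one in KO.

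Agreement between the WT libraries was first read by gene. All 10 SR genes had clusters in WT1 and 5 in WT2, so that 5 of 10 were found in both (SRSF8 and SRSF12, not among the 10, had no cluster in WT1), against 56.9% of the 9706 genes found in at least 1 WT library. Detection in the smaller library followed the number of clusters in the larger one. Of the 6 SR genes with 1 to 3 clusters in WT1, 1 (SRSF2) had a cluster in WT2, against 30.01% of such genes overall. Of the 4 with 7 or more clusters, all 4 had one, against 94.2% overall. The limits of 3 and 7 clusters were not set in advance, and no SR gene lay between them. With 6 and 4 genes, these counts do not set the SR genes apart from other genes.

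By position, 3 of the 13 SR clusters of WT2 overlapped a cluster of WT1 (23.1%, 95% Wilson interval 8.18 to 50.3%), against 19.5% over all clusters of that library. In the other direction it was 3 of 45 (6.67%, 2.29 to 17.9%), against 6.001% overall. The shared sites were those with many reads: 3 of the 4 SR clusters of WT1 with 100 or more reads were shared, and all 3 of WT2. Over all clusters of that size 30.4% were shared in WT1 and 30.03% in WT2. The limit of 100 reads was set after these values were seen, and numbers of 4 and 3 clusters are too small to set the SR genes apart from it. Of the 13 clusters of WT2, 8 lay within 500 nt of a WT1 cluster, a distance also set afterwards, against 50.9% of all clusters.

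**Figure D2:**
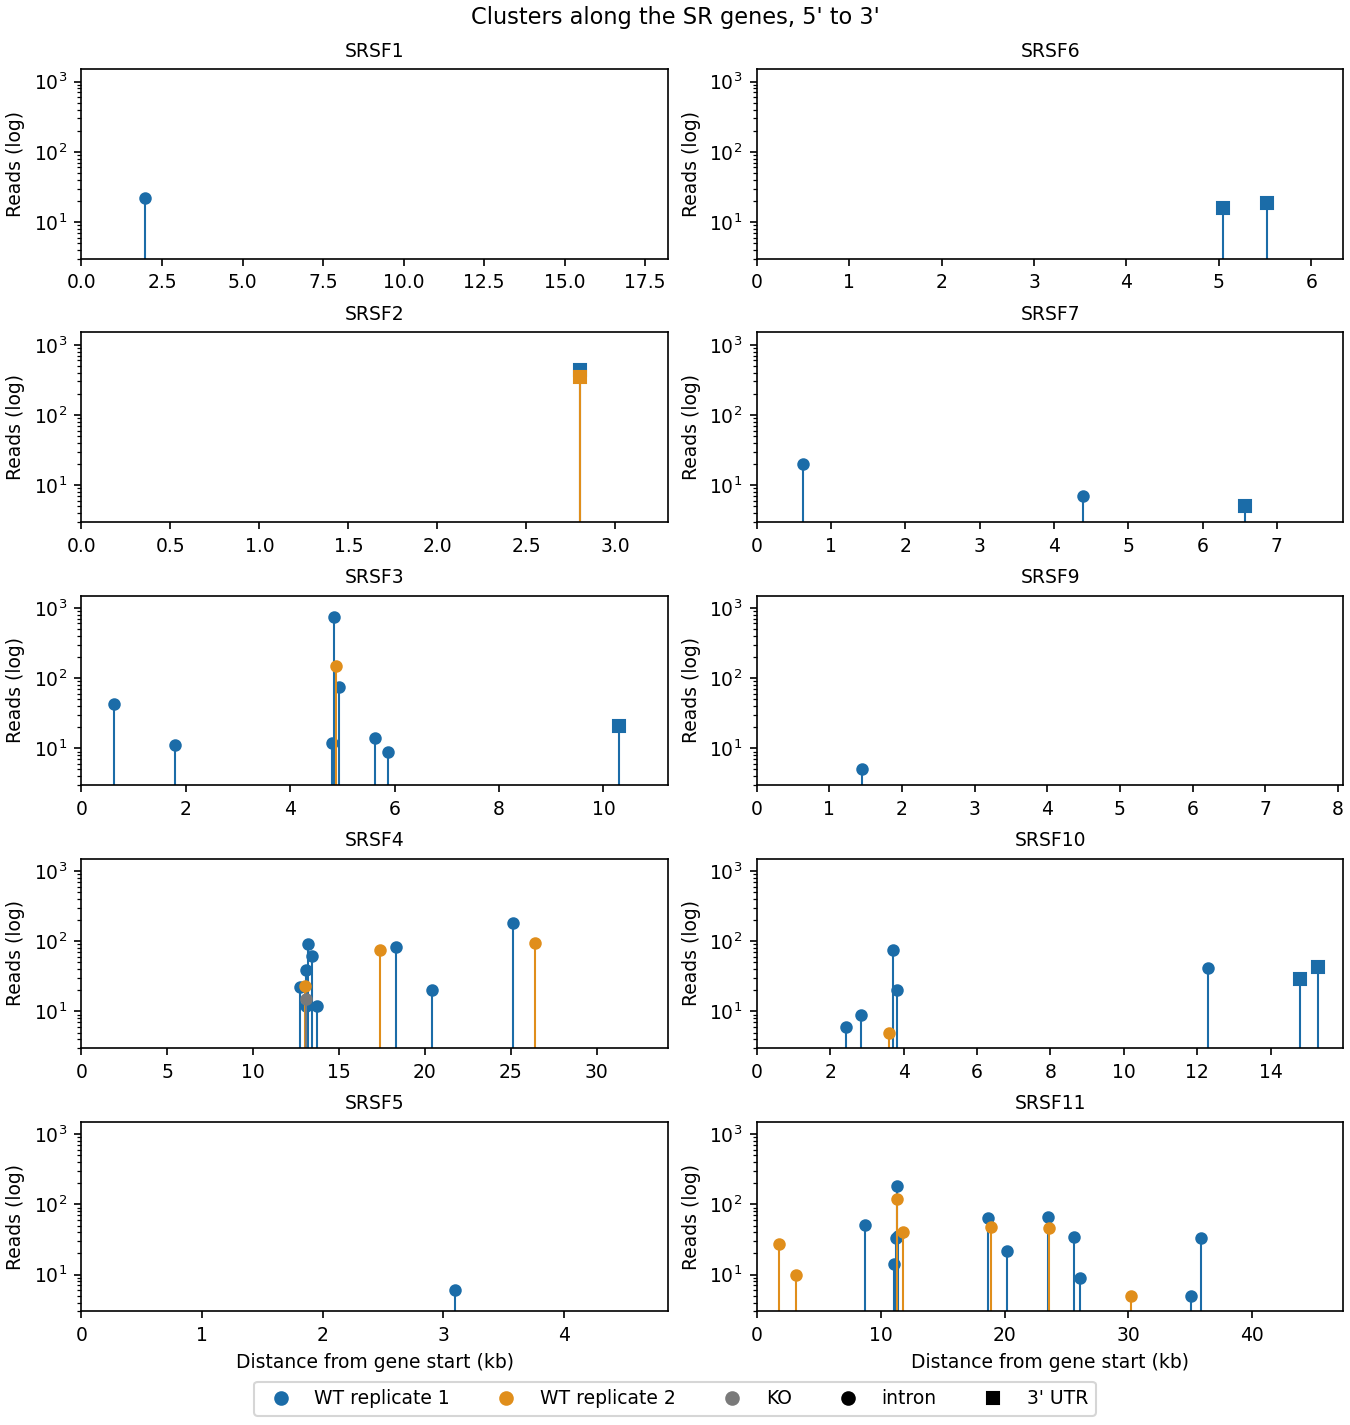
Reads per cluster (log axis) against the distance of the cluster from the RefSeq gene start in kb, 1 panel per SR gene drawn 5′ to 3′ over the gene's full length; blue is WT1, orange WT2 and grey KO, circles are intronic and squares 3′ UTR clusters. The shared sites of SRSF2, SRSF3 and SRSF11 stand at 439 and 351, 753 and 149, and 183 and 119 reads.

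As a whole the SR genes took nearly the same share of clusters in both WT libraries, 0.0516% (95% Wilson interval 0.0386 to 0.069%) in WT1 and 0.0479% (0.028 to 0.0819%) in WT2, a mean of 0.0497 ± 0.00263% (SD, n = 2). The KO share, from 1 cluster, was 0.119% (0.021 to 0.67%), an interval that includes both WT shares. Genotypes were not tested against each other, since KO is 1 library. The share of cluster reads was 0.104% in WT1, 0.0634% in WT2 and 0.00669% in KO, from 2777, 989 and 15 reads. These reads came from 1596 nt of called SR sequence in WT1, 423 nt in WT2 and 23 nt in KO. Reads per SR cluster averaged 61.7 in WT1, 76.1 in WT2 and 15 in KO, against 30.6, 57.4 and 266.2 over all clusters. One site weighed heavily in each WT library, since the SRSF3 cluster of 753 reads held 27.1% of the SR reads of WT1 and the SRSF2 cluster 35.5% of those of WT2. The median SR cluster had 22 reads in WT1 and 46 in WT2, against 20 and 39 over all clusters.

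Longer genes offer more room for clusters, so levels of different genes were compared per length of the RefSeq gene. In WT1 the order by clusters per 10 kb began with SRSF3 at 7.12, SRSF10 at 4.38 and SRSF7 at 3.8, and ended with SRSF9 at 1.24 and SRSF1 at 0.549. SRSF6 at 3.15, SRSF2 at 3.03, SRSF4 at 2.63, SRSF11 at 2.53 and SRSF5 at 2.06 lay between them. Neighbours in this order differed by less than SRSF3 or SRSF10 did between the WT libraries. With the clusters of the overlapping transcript counted, SRSF1 would stand first in WT1, at 7.69, and behind SRSF2 and SRSF11 in WT2, at 1.1. In WT2 the order was different, with SRSF2 at 3.03, SRSF11 at 1.48, SRSF3 at 0.89, SRSF4 at 0.878 and SRSF10 at 0.626. SRSF2 thus had the same value in both libraries, while the other SR genes were lower in WT2, as was the median over all genes. With 1 cluster in each library, SRSF2 had the lowest value that a gene of its length can have once it is found. Its equal value and first place in WT2 therefore say little beyond its short length of 3.3 kb.

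The median over the SR genes with a cluster was 2.83 clusters per 10 kb in WT1 (10 genes) and 0.89 in WT2 (5 genes). Over all genes with a cluster and a RefSeq length it was 1.02 (quartiles 0.453 and 2.15, 8709 genes) and 0.428 (0.216 and 0.866, 5828 genes). A short gene that has any cluster has a high value, and the SR genes are short, at 3.3 to 47.4 kb. Among genes within that length range the medians were 1.37 (4107 genes) and 0.732 (2252 genes). Lengths were not matched inside this range, and SRSF2, SRSF3, SRSF5, SRSF6, SRSF7 and SRSF9 are 11.2 kb or shorter. The comparison therefore does not account for length in full, and the gap to the SR medians was not tested. SRSF3 stood at percentile 96.4 of all genes in WT1 and at 75.9 in WT2, and SRSF2 at 84.1 and 96.8. By reads per kb, a scale that moves with single sites, SRSF2 had 133.2 in WT1 and 106.5 in WT2, SRSF3 83.5 and 13.3, and SRSF11 11.6 and 6.21.

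**Figure D3:**
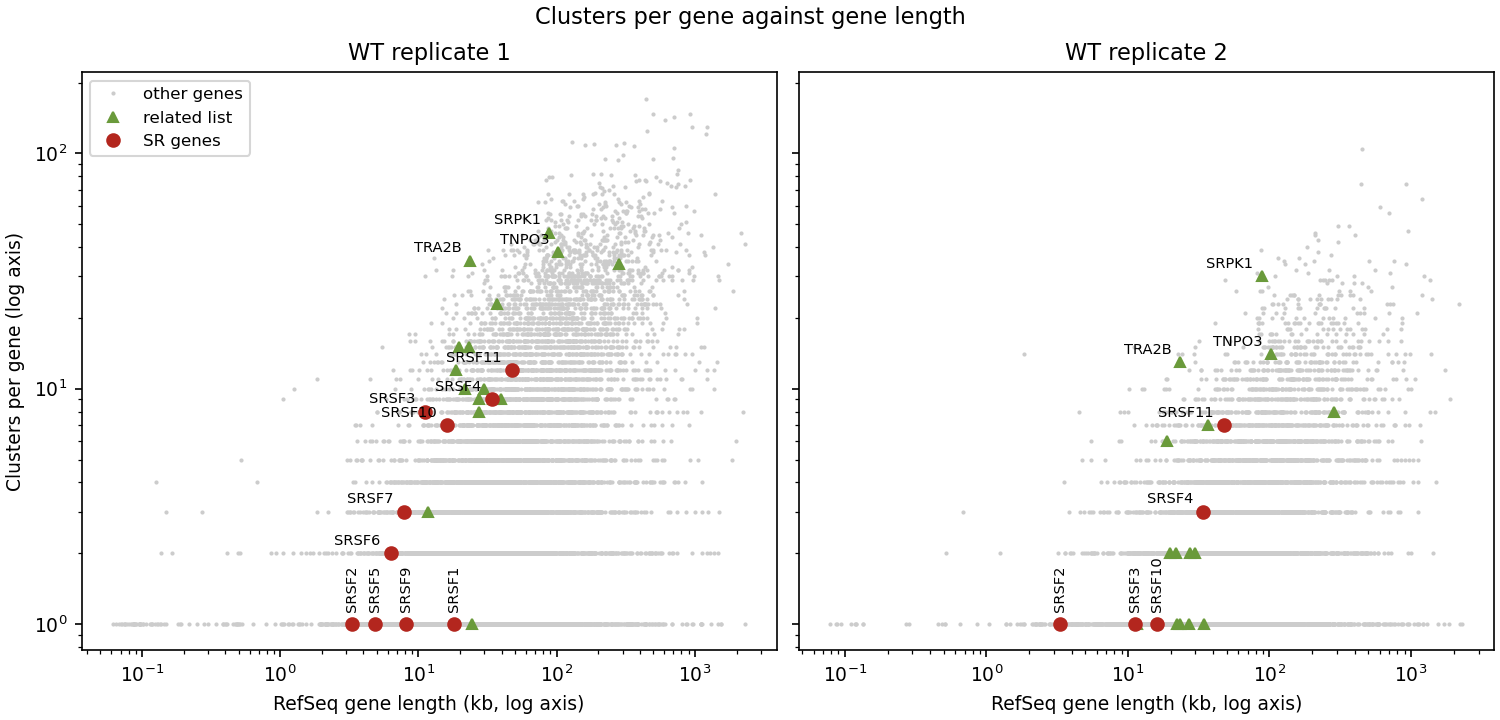
Clusters per gene against RefSeq gene length in kb (both log axes) for WT1 (left) and WT2 (right), with the SR genes in red, the related genes as green triangles and other genes with a cluster in grey. SRSF3 has 8 clusters in 11.2 kb in WT1 and 1 in WT2, and TRA2B, a related gene, has 35 clusters in WT1 and 13 in WT2.

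The place of the SR sites within transcripts was compared next. Introns held 38 of 45 SR clusters in WT1 (84.4%, 95% Wilson interval 71.2 to 92.3%) and 12 of 13 in WT2 (92.3%, 66.7 to 98.6%). Over all gene clusters introns held 91.9% and 90.3%, and over genes in the length range of the SR genes 85.5% and 80.3%, all inside the SR intervals. Every other SR cluster lay in a 3′ UTR: 7 in WT1 (15.6%, 7.75 to 28.8%) and 1 in WT2 (7.69%, 1.37 to 33.3%). The 7 were in SRSF2, SRSF3, SRSF7, SRSF6 with 2 and SRSF10 with 2. No SR cluster was annotated to a retained intron, a nonsense-mediated decay transcript, coding sequence, a 5′ UTR or a span of 2 classes. For these classes 0 of 45 allows a share of up to 7.87%, the upper Wilson limit, and 0 of 13 up to 22.8%. Retained introns took 0.089% and decay transcripts 0.175% of all gene clusters in WT1, shares too low to be seen among 45 clusters. The class is the deposited label of each cluster, and no map of exons and introns in the build was available. Sites could therefore not be placed relative to splice sites or to the alternative exons and retained introns that regulate SR transcripts. The absence of these classes does not show that such parts lack sites.

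Over all clusters in genes, the 3′ UTR share was 3.21% in WT1 and 4.53% in WT2. The first value lay below the SR interval of its library and the second inside it. Gene length moved with this share: among genes in the length range of the SR genes it was 8.19% and 13.1%, both inside the SR intervals. Weighted by reads, the 3′ UTR share of the SR clusters rose to 20.6% in WT1 and 35.5% in WT2, because the SRSF2 site alone held 439 and 351 reads.

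**Figure D4:**
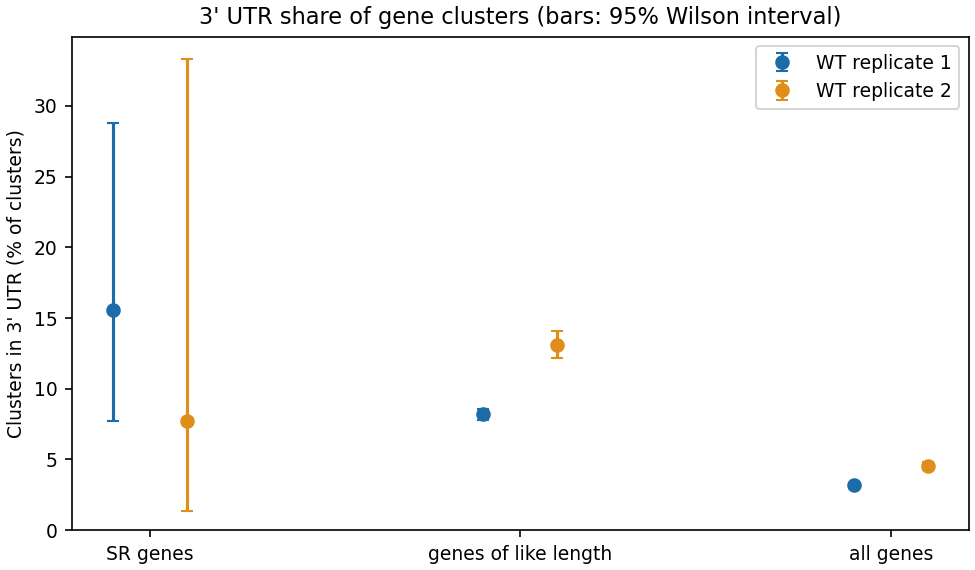
Share of clusters in 3′ UTRs (percent) for the SR genes, for genes with RefSeq lengths of 3.3 to 47.4 kb and for all genes, in WT1 (blue) and WT2 (orange); points are shares and bars 95% Wilson intervals over clusters. The SR intervals, 7.75 to 28.8% and 1.37 to 33.3%, include the values of genes in that length range, which were not matched in length inside it.

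Conversion and base make-up were not used to choose the members. In the median SR cluster, 89.7% of the reads were converted in WT1 and 96.6% in WT2, against 94.1% and 97.5% over all clusters. The share of converted reads was below 50% in 2 of 45 SR clusters of WT1 (4.44%) and 1 of 13 of WT2 (7.69%), against 4.16% and 3.95% of all clusters. Of the T positions read in SR clusters, 7.96% were converted in WT1 (95% Wilson interval 7.69 to 8.24%), against 7.98% over all clusters. In WT2 it was 5.94% (5.57 to 6.35%), against 7.55%. Both values depended on SRSF2, whose own share was 5.79% in WT1 and 2.58% in WT2. Without SRSF2 the SR share was 8.42% (8.11 to 8.74%) in WT1, above that of all clusters, and 7.91% (7.37 to 8.49%) in WT2. SRSF2 was left out because of its low share, while the share over all clusters kept every cluster, so these shares are not directly comparable. Reads carry no molecular identifiers, so these intervals cover counting error only.

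T made up 39.6% of the SR cluster bases in WT1 and 43.7% in WT2, and G made up 9.27% and 6.15%. Over all clusters T was 40.1% and 41.8%, and G was 10.1% and 9.99%. Pyrimidines ranged from 44.7% to 89.7% among the SR clusters of WT1, with a median of 64.5%, against a median of 68.6% over all clusters. In WT2 they ranged from 50% to 81.5% with a median of 70%, against 69.2%.

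The 3 pyrimidine words, of which the last pair can overlap, and the purine word GGAGA were searched on the transcript strand only. At least 1 of the 3 pyrimidine words was found in 19 of 45 SR clusters of WT1 (42.2%, 28.97 to 56.7%), against 51.9% of all clusters of like length. In WT2 it was 5 of 13 (38.5%, 17.7 to 64.5%), against 53.5%. Both intervals include the value over all clusters. TTTCT was found in 14 SR clusters of WT1 (31.1%) and 3 of WT2 (23.1%), against 32.3% and 33.1% of clusters of like length. TTCTT was found in 12 (26.7%) and 3 (23.1%), against 30.5% and 31.5%. ATCTT was found in 5 (11.1%) and 1 (7.69%), against 14.8% and 15.6%. GGAGA was in 0 of 45 and 0 of 13, against 1.1% of clusters of like length in each library.

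Other genes of the SR pathway were taken from a list of 21: further SR and SR-like proteins, the kinases that phosphorylate their tails, their nuclear import receptor and spliceosomal partners with such a tail. Of these, 16 had a cluster in WT1, 15 in WT2, 14 in both and 1 in KO. Over the 9706 genes with a cluster in at least 1 WT library, 56.9% had clusters in both and 5.88% had a KO cluster. That base leaves out genes without a WT cluster, of which the list held 4, and the list was not tested against it. SRSF8, SRPK3, CLK2 and U2AF1 had none in any library, and SRSF12 had 1 cluster of 31 reads in WT2 alone. The list held 277 clusters in WT1 and 91 in WT2, or 0.326 ± 0.0124% of clusters (SD, n = 2). Introns held 97.5% (94.9 to 98.8%) of these clusters in WT1 and 93.4% (86.4 to 96.9%) in WT2. Over all gene clusters it was 91.9% and 90.3%, of which the second lay inside the interval of the list. Some listed genes are long, such as SRPK2 at 284.6 kb, and no comparison with genes of like length was made for the list.

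TRA2B, an SR-like splicing activator, had 35 clusters with 3046 reads in WT1, more reads than the 10 SR genes together, and 13 with 938 reads in WT2, fewer than the 989 reads of the SR genes. At 14.9 and 5.54 clusters per 10 kb it stood at percentile 98.8 of all genes in WT1 and 99 in WT2. Its paralogue TRA2A had 8 and 1 clusters, at 2.94 and 0.368 per 10 kb. Among the kinases, SRPK1 had 46 clusters with 2101 reads and 30 with 1997 reads, at 5.22 and 3.4 per 10 kb, while SRPK2 had 34 and 8, at 1.19 and 0.281. CLK3 had 10 and 2 clusters and CLK1 had 3 and 1. The KO cluster of the list was in CLK3 and had 274 reads of 9 distinct sequences. In WT1 CLK3 had 179 reads of 40 distinct sequences, and in WT2 it had 116 reads of 3. Clusters of KO held more reads in general, with a median of 243 over all clusters, against 20 in WT1 and 39 in WT2. TNPO3, which carries SR proteins into the nucleus, had 38 and 14 clusters. The other genes found in both WT libraries were ACIN1 with 23 and 7 clusters, SRRM2 with 12 and 6, U2AF2 with 15 and 2, SRRM1 with 10 and 2, PNISR with 9 and 2, SNRNP70 with 15 and 1 and SON with 9 and 1.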

How the data were processed

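PAR-CLIP cluster tables of 2 WT libraries and 1 KO library were analysed. Per the file headers and values, the authors deposited clusters called in each library by itself, with whole read counts, counts of distinct read sequences and of T conversions, and a deposited fraction of reads that were converted or ended in G; none is normalised. No cluster had fewer than 5 reads or fewer than 2 converted positions. The submitters' processing notes name cutadapt 1.8.3, Bowtie 1.1.2, hg38 and GRCh38.p5 without roles; the cluster caller and annotation release are not given in the sources used here. The tables hold no reads outside clusters.

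Members are clusters named for an SR gene; all 59 had a HAVANA annotation and lay inside the gene's interval in RefSeq (GRCh38.p14), which gave lengths (9144 of 9706 gene names matched). Overlap needed 1 nt on the same strand. For clusters, like length meant within 2 nt, or 10 nt where fewer than 20 clusters were that close. Percentages have 95% Wilson intervals; group values are mean and SD. Nothing was tested, because KO is 1 library with no replicate. All members, the related genes found in both WT libraries, the strongest and the shared clusters and every KO cluster are named. Members and lists were chosen with earlier results of these data known. Alternatives were other read and conversion minimums, weights, denominators and overlap rules. On simulated data, 100% of overlaps planted among 27155 intervals, and 100% of planted words, were recovered. The only word planted was TTCTT, in sequences with no other T, and the intervals were evenly spaced. This checks the search code alone, in a setting simpler than these data. Python 3.11.15, numpy 2.4.6, pandas 2.3.3, scipy 1.17.1 and matplotlib 3.10.9 were used.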

Additional observations from a re-analysis of the deposited data

Results flagged for a closer look

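Signal lay outside the clusters that carry an SR gene's name. Within the SRSF1 interval and on its strand, clusters assigned to RP11-159D12.5 numbered 13 in WT1, with 5 to 92 reads each, and 2 in WT2, with 123 and 84 reads, while the KO control had 0. They were flagged because no comparison by gene name uses them. These were all the clusters of that name in either WT library.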

How the results depend on the processing

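Of 55 recomputed values, 44 stayed within the spread of the WT libraries, the main interval or 1.5 times the main count. Some of these could not leave that range. A mean share without either WT replicate always lies within the SD of the WT libraries. Admitting any annotation source or counting a cluster of 2 classes under each changed nothing, since no SR cluster was of either kind. The number of unmoved values is therefore no measure of stability. With at least 3 converted positions, a limit on conversion itself, the mean number of SR clusters fell from 29 to 13.5, the KO cluster was lost (0), SR genes found in both WT libraries numbered 3 instead of 5, and the mean share of clusters was 0.0801%. With clusters in genes as the denominator that share was 0.0542%. Weighting by reads gave intronic and 3′ UTR shares of 71.96% and 28.04%, against 88.4% and 11.6%. Removing 3 nt from each cluster end left a pyrimidine word in 37.01% of SR clusters, against 40.3%. Without either WT replicate, clusters ranged from 13 to 45, reads from 989 to 2777, the share of clusters from 0.0479 to 0.0516%, of reads from 0.0634 to 0.104%, introns from 84.4 to 92.3% and 3′ UTRs from 7.69 to 15.6%. Assigning clusters by position, chosen after seeing the data, gave 6 SR genes in both WT libraries and 4 of 15 clusters shared. No paired analysis was possible because the KO library has no replicate number in the labels and no test was made. WT2, with 31.1% of the clusters of WT1, limits what can be called shared.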

Other observations

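The deposited fraction of reads that end in G depended on the strand in the tables. Its median was 97.1% for plus-strand clusters and 0% for minus-strand clusters in WT1, 100% and 0% in WT2, and 100% and 0% in KO. The cluster sequences themselves, printed on the transcript strand, ended in G in 67.2% and 80.5% of plus-strand and minus-strand clusters of WT1 and in 93.1% and 95.9% of those of WT2. The deposited column was therefore not used. Among SR clusters, 30 of 45 sequences ended in G in WT1 and 11 of 13 in WT2, against 73.5% and 94.4% of all clusters; RNase T1, which was used here, cuts after G.

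The WT libraries differed in how many distinct sequences stood behind a read. SR clusters had 8.39 reads per distinct sequence in WT1 and 15.95 in WT2, against 7.58 and 17.9 over all clusters. The number of SR clusters in WT2 was 28.9% of that in WT1, close to the 31.1% of all clusters, whereas for reads it was 35.6% against 58.4%.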
